A study of Mus musculus with 4 samples.

Results

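Genes that act as signals, signal inhibitors or transcription factors of the early nephron were followed here, namely Wnt4, Fgf8, Lhx1, Pax2, Pax8, Emx2, Pou3f3, Dkk1 and Bmp2. They are 9 of 31809 gene names on the array. Every non-control probe that the array names for one of these 9 genes was taken, which gave 14 of 39429 probes. All 14 were among the 30012 tested, which are the probes that stood well above background in both samples of 1 group or of both groups. The samples were E15.5 kidneys of mouse embryos, of a hybrid of 129 and C57BL/6, whose cells were sorted by fluorescence into 2 Six2GFP-positive and 2 Six2GFP-negative samples. Per the protocols both kinds of cell came from Six2GFP kidneys, so the negative samples are the remaining cells of reporter kidneys and not a wild-type control. Six2 is the transcription factor that maintains the nephron progenitors of the cap mesenchyme. The labels do not give the construct behind the reporter or how long its fluorescence lasts after Six2 falls. They also mention tamoxifen in the description of every sample, while the protocols do not, and they call the negative cells nephron progenitors as well; the groups follow the sample titles. Nothing in the labels says that the arrays of a group came from separate litters or sorts, so each p-value measures the spread between these samples, which may be technical.

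In the developing kidney, the ureteric bud releases Wnt9b, and progenitor cells next to it gather into a pretubular aggregate that begins to make Fgf8 and Wnt4. Wnt4 drives the aggregate to become the epithelial renal vesicle, and Fgf8 is needed for the survival of these cells and for their Wnt4 and Lhx1. Pax2 and Pax8 are paired-box factors of the renal lineage, and Emx2, Lhx1 and Pou3f3 are homeodomain factors needed for growth of the kidney or patterning of the nephron. Several of the 9 genes are also made outside the forming nephron, for example Pax2, Pax8, Lhx1 and Emx2 in the ureteric bud.

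Agilent arrays measure a transcript at the 60 bases that a probe covers, so the probe sequences show which stretch of each RNA a value refers to. The 6 below were judged from their sequence to lie in the coding stretches of 4 genes, and 5 of them belong to the genes with several probes. No annotation of exons was looked up, so probes outside these 6 may be coding too. The mm9 span is that of the array files. The Wnt4 probe covers 569 bases of genome and the second Lhx1 probe covers 153, so each 60-base probe runs across an intron and reads spliced RNA.
Wnt4 A_51_P130475, chr4:136851690-136852258, plus strand: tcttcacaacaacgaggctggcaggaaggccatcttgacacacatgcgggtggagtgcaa
Fgf8 A_55_P2108109, chr19:45811668-45811727, minus strand: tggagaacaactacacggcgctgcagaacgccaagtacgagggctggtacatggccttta
Lhx1 A_55_P2231244, chr11:84335442-84335594, minus strand: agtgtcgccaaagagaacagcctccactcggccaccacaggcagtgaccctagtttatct
Pax2 A_55_P2148518, chr19:44835420-44835479, plus strand: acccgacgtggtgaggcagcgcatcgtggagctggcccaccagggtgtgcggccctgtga
Pax2 A_55_P2075125, chr19:44871124-44871183, plus strand: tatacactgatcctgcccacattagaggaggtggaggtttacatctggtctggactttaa
Pax2 A_55_P2075127, chr19:44909895-44909954, plus strand: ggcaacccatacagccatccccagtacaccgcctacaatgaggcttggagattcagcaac

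The other 8 probes are given by position in mm9. Fgf8 had another probe at chr19:45811355-45811414 (A_55_P2101508) and 1 more at chr19:45816855-45816914 (A_55_P2101506), and the other Lhx1 probe lay at chr11:84331888-84331947 (A_52_P652336), all on the minus strand. Pax8 was read at chr2:24276147-24276206 and Dkk1 at chr19:30621424-30621483, both on the minus strand. Emx2 was read at chr19:59539142-59539201, Pou3f3 at chr1:42756099-42756158 and Bmp2 at chr2:133388260-133388319, on the plus strand. Fgf8, Pax2, Emx2 and Dkk1 thus all lie on chromosome 19.

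Each value below is the log2 of the processed signal relative to the 75th percentile of its array, so 0 is that percentile and each step of 1 is a doubling of signal. A difference is the mean of the 2 positive arrays minus the mean of the 2 negative arrays, given with its standard error, and a probe was called at an adjusted p under 0.05 over all tested probes (limma). The 75th percentile itself lay at a signal of 1483 to 1511 in the positive samples and of 1693 to 1710 in the negative ones, between 72.5% and 79.1% of spots were well above background, and none was saturated. The sort was read on Six2 itself, at 5.50 and 5.66 in the positive samples against -0.26 and -0.24 in the negative samples, a difference of 5.84 ± 0.10 (adjusted p = 4.79e-04). Cited1, another progenitor factor, stood 4.82 ± 0.17 higher in the positive cells.

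Among the 14 probes, 5 were higher in Six2GFP-positive cells, against 22.7% of all tested probes, and 8 were lower, against 18.0%; in either direction 40.7% of tested probes passed. All 13 of these differed by at least 2-fold, a size that 3.80% of tested probes reached upward and 12.5% downward. By gene, taking the brightest probe of each, Fgf8 and Pax2 were higher and the other 7 were lower. On all 14 probes both arrays of one group lay above both arrays of the other, 6 upward and 8 downward, as was so for 49.1% and 26.8% of tested probes. The median difference was -1.35 over the 14 probes and 0.17 over all tested probes. In sorted bulk samples, fewer cells of a type and less RNA per cell cannot be told apart.

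**Figure D1:**
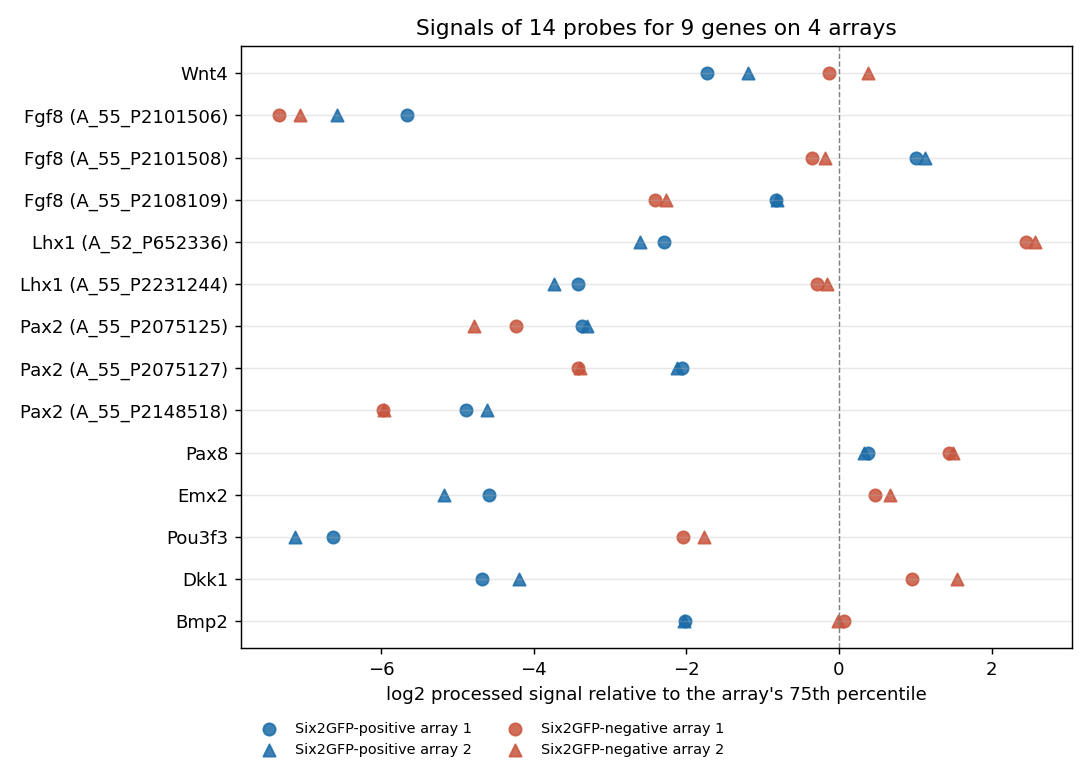
Log2 processed signal relative to the 75th percentile of the array (horizontal axis) of each of the 14 probes, with Six2GFP-positive arrays in blue and Six2GFP-negative arrays in red and a circle or triangle for array 1 or 2. The blue and red points do not overlap on any probe; blue lies to the right for Fgf8 and Pax2 and to the left for the other 7 genes.

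The signals of the early nephron went in different directions. Fgf8, a secreted growth factor, was higher in the Six2GFP-positive cells on its brightest probe, A_55_P2101508, which read 1.02 and 1.13 on the positive arrays against -0.35 and -0.18 on the negative ones. This was a difference of 1.34 ± 0.11, or 2.53-fold (95% confidence interval 1.03 to 1.64 on the log2 scale, adjusted p = 0.00290). The coding-stretch probe A_55_P2108109, printed above, read -0.83 and -0.81 against -2.41 and -2.26, a difference of 1.52 ± 0.10 (adjusted p = 0.00163). Both probes placed the 2 positive arrays within 0.11 of each other and more than 1 unit above either negative array. The third Fgf8 probe, A_55_P2101506, was dim, with raw signals from 10.6 to 29.8 on the 4 arrays. It was not well above background on either negative array, and its values of -5.66 and -6.58 against -7.34 and -7.07 gave a difference of 1.08 ± 0.35 that did not pass the test (adjusted p = 0.0744). With normexp background correction, which models the background and compresses dim values, the difference was 0.38 when arrays were scaled to the 75th percentile (adjusted p = 0.0157) and 0.25 when they were quantile-normalised (adjusted p = 0.0758).

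Wnt4, the secreted signal that starts the conversion of mesenchyme to epithelium, was lower in the Six2GFP-positive cells. Its probe read -1.72 and -1.19 on the positive arrays against -0.13 and 0.38 on the negative ones, so the higher positive array and the lower negative array were about 1 unit apart. The difference was -1.58 ± 0.27, or 2.98-fold (95% confidence interval -2.34 to -0.82, adjusted p = 0.0190). The call was lost when either of 2 arrays was left out: without positive array 1 the difference was -1.31 (adjusted p = 0.0563), and without negative array 2 it was -1.32 (adjusted p = 0.0745). Another probe, at chr4:136855342-136855401 in mm9, is named on the array only by a transcript identifier, ENSMUST00000097840. It lies 3652 bases beyond the Wnt4 probe on the same strand and was picked after its values were seen. Whether it reads Wnt4 RNA was not tested, so it lends no support to the Wnt4 call. This probe read 1.36 and 1.87 against 3.14 and 3.63, lower by -1.77 ± 0.26 (adjusted p = 0.0130). Array 2 lay above array 1 in both groups, as on the Wnt4 probe.

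Bmp2, a secreted factor of the bone morphogenetic protein family, read -2.02 and -2.03 on the positive arrays against 0.07 and -0.01 on the negative ones. The replicates lay within 0.08 of each other in both groups, and the positive cells were lower by -2.05 ± 0.09, or 4.15-fold (adjusted p = 7.02e-04). Dkk1, a secreted inhibitor that blocks the Wnt co-receptors, had the widest difference of the 14 probes. Its raw signals were 59.0 and 81.0 in the positive samples against 3334 and 4950 in the negative samples. On the log2 scale these were -4.68 and -4.19 against 0.96 and 1.55, a difference of -5.69 ± 0.28, or 51.7-fold (95% confidence interval -6.47 to -4.91, adjusted p = 9.29e-04). Dkk1 was well above background on all 4 arrays, so both groups have a measured level; with normexp the difference was -4.74.

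The transcription factors also divided, with Pax2 on one side and its relative Pax8 on the other. Pax2 was higher in the Six2GFP-positive cells on all 3 of its probes. The brightest, A_55_P2075127, read -2.05 and -2.12 against -3.41 and -3.39, a difference of 1.31 ± 0.09, or 2.48-fold (adjusted p = 0.00168). A_55_P2148518 read -4.88 and -4.62 against -5.98 and -5.96 (1.22 ± 0.12, adjusted p = 0.00513). A_55_P2075125 read -3.37 and -3.30 against -4.23 and -4.78 (1.17 ± 0.21, adjusted p = 0.0205). The 3 differences were at most 0.14 apart, although their sequences above are spread over 74475 bases of the gene. The call on A_55_P2075125 ended without positive array 1 (1.21, adjusted p = 0.0715) and without positive array 2 (1.13, adjusted p = 0.0829), while the other 2 Pax2 probes kept theirs without any one array. With normexp the difference was 0.74 on A_55_P2075125 and 0.51 on A_55_P2148518. Pax8 read 0.38 and 0.32 on the positive arrays against 1.44 and 1.50 on the negative ones. The positive cells were thus lower by -1.12 ± 0.09, or 2.17-fold (adjusted p = 0.00249), with both groups tight and well separated.

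Lhx1, Emx2 and Pou3f3 were lower in the Six2GFP-positive cells by 10.2- to 43.6-fold. Lhx1, a LIM-homeodomain factor needed for patterning of the renal vesicle, read -2.29 and -2.60 against 2.45 and 2.56 on its brightest probe, A_52_P652336. That difference was -4.95 ± 0.14, or 30.9-fold (95% confidence interval -5.35 to -4.55, adjusted p = 4.83e-04). Its intron-spanning probe, A_55_P2231244, read -3.42 and -3.74 against -0.29 and -0.16, a difference of -3.35 ± 0.15, or 10.2-fold (adjusted p = 7.50e-04). Emx2, a homeodomain factor without which the mouse kidney does not form, read -4.58 and -5.17 against 0.47 and 0.66, and stood lower by -5.45 ± 0.23, or 43.6-fold (adjusted p = 7.31e-04); with normexp the difference was -4.32. On each of these probes the positive arrays were more than 3 units below the negative arrays. Pou3f3, a POU factor of the distal part of the nephron and the loop of Henle, read -6.63 and -7.13 against -2.04 and -1.77. Its difference was -4.98 ± 0.22, or 31.5-fold (adjusted p = 7.44e-04), but among the positive samples, with raw signals of 15.2 and 10.6, the first alone was well above background. With the same normexp correction the Pou3f3 difference was -2.63.

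**Figure D2:**
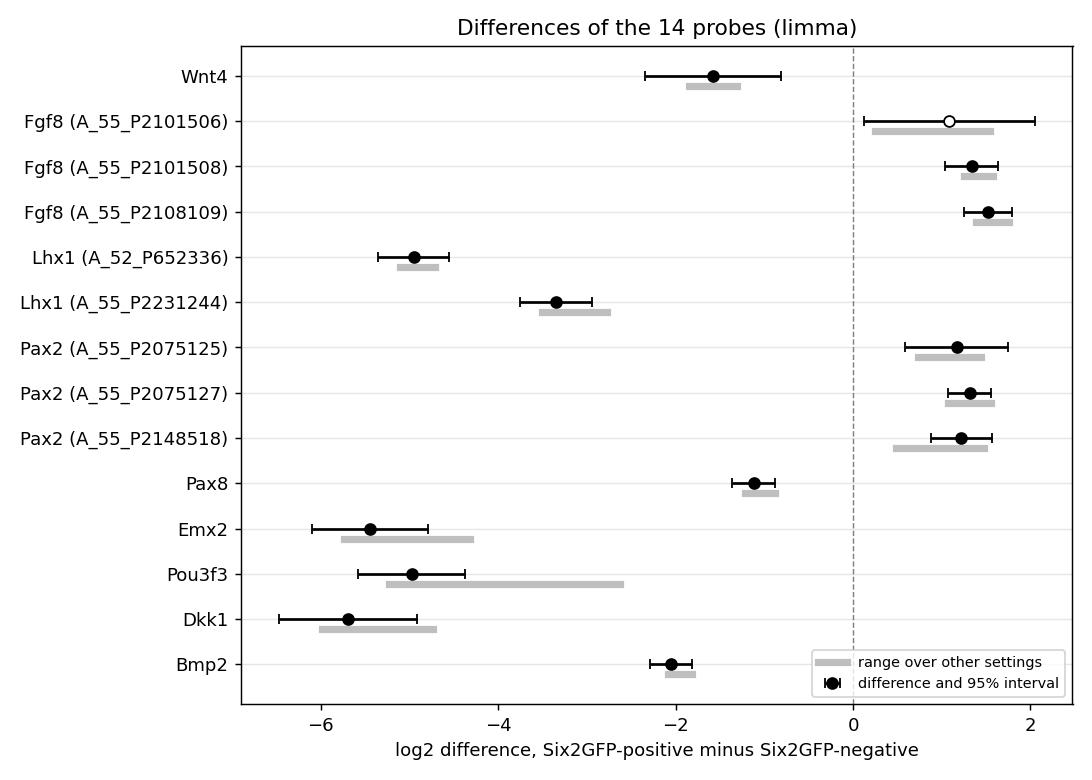
Difference in log2 signal, Six2GFP-positive minus Six2GFP-negative, for the 14 probes (points) with 95% confidence intervals (lines) and, in grey, the range over those of the 14 alternative settings that tested the probe (12 to 14 per probe). The open point did not pass, and n = 2 arrays per group. The differences run from -5.69 for Dkk1 to 1.52 for Fgf8 A_55_P2108109, and the interval for Fgf8 A_55_P2101506 is the widest relative to its size.

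Pairs of these genes were also compared within each array, where any scaling of the array cancels. The level of such a ratio depends on the probes, so the change between groups is what can be read. The log2 ratio of the Pax8 to the Pax2 signal was 2.43 and 2.45 in the positive samples against 4.86 and 4.89 in the negative samples, a 5.40-fold change. The ratio of Wnt4 to Fgf8 was -2.74 and -2.31 against 0.22 and 0.56, a 7.54-fold change. These 2 pairs are a pair of paralogues and the 2 signals of the pretubular aggregate, and in both the members moved oppositely. The ratio of Lhx1 to Fgf8 was -3.30 and -3.73 against 2.80 and 2.74, a 78.2-fold change. The ratio of Dkk1 to Wnt4 was -2.96 and -3.01 against 1.10 and 1.17, a 17.3-fold change, so that Dkk1 was lower in the positive cells by more than Wnt4 was. With 2 arrays against 2, the two-sided exact permutation test gave p = 0.333 for each of the 4 pairs, the smallest value it can give.

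**Figure D3:**
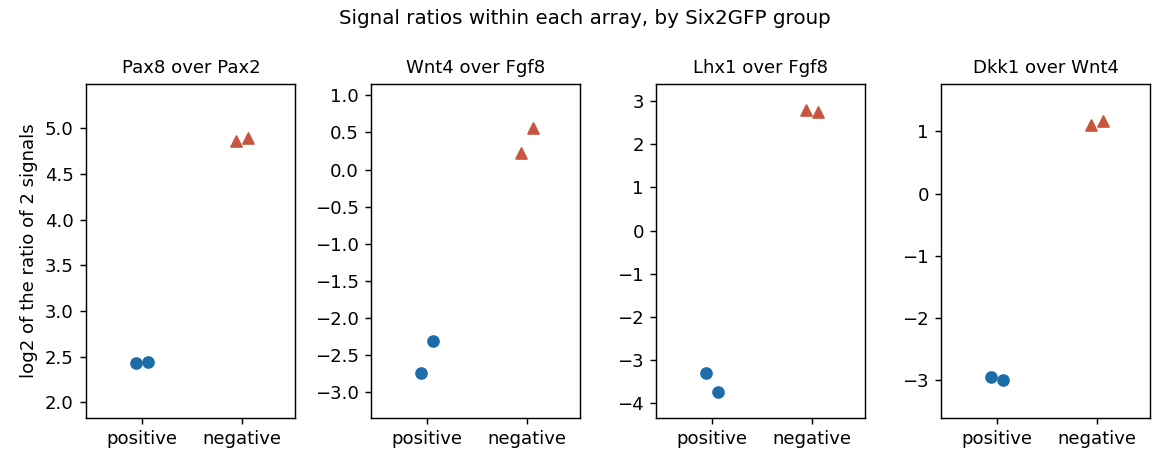
Log2 ratio of the brightest probes of 4 pairs of genes on each array (points), Six2GFP-positive in blue and Six2GFP-negative in red. In each pair the 2 arrays of a group lie within 0.43 of each other and the groups are at least 2.4 apart.

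The genes with several probes were read at different places, and whether the probes of a gene read the same RNA was not tested. The 2 Fgf8 probes that passed lie 313 bases apart in the genome and gave differences of 1.34 and 1.52, with overlapping intervals. The 3 Pax2 probes, at 0, 38771 and 74475 bases from the one nearest the 3' end, gave 1.31, 1.17 and 1.22. The Lhx1 probes, 3554 bases apart, both fell but by unlike amounts. The log2 ratio of the 3' to the intron-spanning probe was 1.13 in both positive samples against 2.74 and 2.73 in the negative samples, a 3.04-fold change with almost no spread between replicates. The array names A_52_P652336 for Lhx1 through an Ensembl transcript rather than a RefSeq accession, and whether it reads RNA that the other probe does not was not tested.

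**Figure D4:**
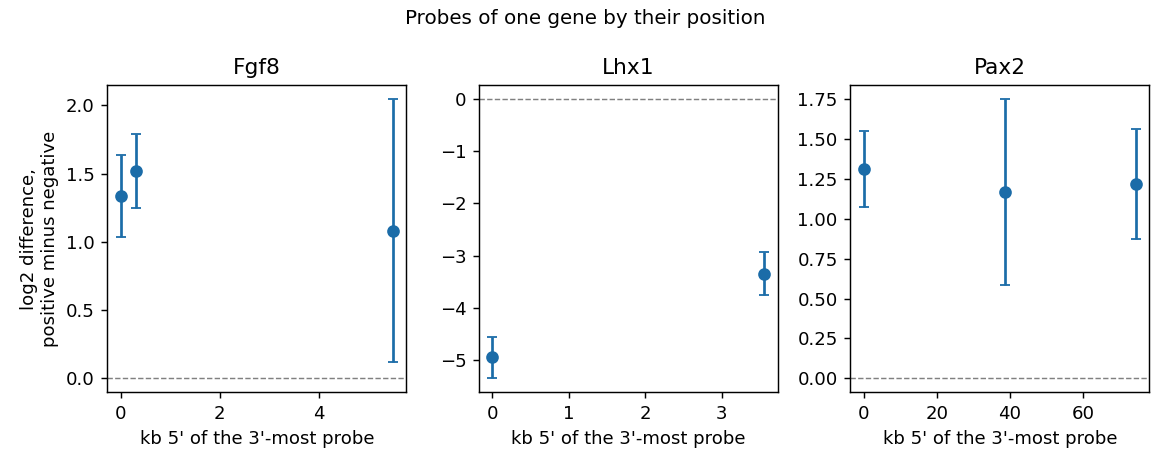
Difference in log2 signal, Six2GFP-positive minus Six2GFP-negative, with 95% confidence intervals, against the genomic distance in kb of each probe from the 3'-most probe of the same gene, for Fgf8, Lhx1 and Pax2. The Pax2 values stay between 1.17 and 1.31 over 74475 bases, while the Lhx1 values are -4.95 and -3.35.

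The 2 arrays of a group differed by unlike amounts from gene to gene. Wnt4 and Dkk1 were both lower on array 1 than on array 2, by -0.54 and -0.48 in the positive group and by -0.51 and -0.58 in the negative group. Lhx1, Emx2 and Pou3f3, which were low in the positive cells, read higher on positive array 1 than on positive array 2, by 0.31 and 0.32 on the Lhx1 probes, 0.59 for Emx2 and 0.50 for Pou3f3. Over all tested probes the median difference between arrays of a group was 0.003 and 0.007. On the same pair of arrays all 10 markers of tubule segments were higher on positive array 1, with a median gap of 0.90. So were 11 of 15 markers of the ureteric bud (0.35), 8 of 11 stromal markers (0.13) and 5 of 7 podocyte markers (0.06). Endothelial markers were higher there in 4 of 9 cases (-0.04), erythroid and leukocyte markers in 4 of 9 (-0.29) and cap mesenchyme markers in 5 of 13 (-0.03). The part of any of these cell types in the gap of Lhx1, Emx2 and Pou3f3 was not tested.

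Genes of the same pathways were described from fixed lists, by the brightest probe of each gene. For comparison, 22.7% of all tested probes were called higher and 18.0% lower, with a median difference of 0.17. Of 25 other genes of the renal vesicle, 2 were higher in the Six2GFP-positive cells, 19 were lower and 4 did not pass, with a median difference of -2.32. The 2 that were higher were Wt1 (1.17 ± 0.08), a transcription factor made from progenitor to podocyte, and Tmem100 (0.72 ± 0.08). The lowest were Irx3 (-5.33 ± 0.11) and Irx2 (-4.67 ± 0.11), Iroquois factors of the middle nephron segments, and Hes5 (-5.14 ± 0.31), a target of Notch. By brightest probe, the median of the 9 genes was -2.05.

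Around Wnt4 and Dkk1, 33 genes of the Wnt pathway gave 7 higher, 15 lower and 11 without a call (median -0.44). The higher ones included the agonists Rspo3 (3.05 ± 0.15) and Rspo1 (2.85 ± 0.09) and the repressor Tcf7l1 (1.55 ± 0.09). The lower ones included Lef1, a transcription factor and target of the pathway, which read -4.11 and -4.07 against 0.07 and 0.24, a difference of -4.24 ± 0.10. They also included Wnt9b, the ureteric bud signal (-3.50 ± 0.24), and the receptor Fzd10 (-3.38 ± 0.09). Other targets of the pathway in the list, named after their values were seen, were mixed. Axin2 was higher (0.59 ± 0.09, adjusted p = 0.0152) and Nkd1 was lower (-1.02 ± 0.10, adjusted p = 0.00475). Sp5 (-0.49 ± 0.14, adjusted p = 0.0631) and Notum (0.04 ± 0.10, adjusted p = 0.777) did not pass. Thus, of the called genes named here, Rspo1, Rspo3, Tcf7l1 and Axin2 stood on the positive side. Wnt4, Wnt9b, Lef1, Fzd10, Nkd1 and Dkk1 stood on the negative side, so targets of the pathway lay on both.

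Around Fgf8, 18 genes of the FGF pathway gave 6 higher, 3 lower and 9 without a call (median 0.22). Its target genes Etv4 (1.27 ± 0.08) and Spry4 (0.90 ± 0.09) and the receptor Fgfr1 (0.84 ± 0.09) were higher with Fgf8. The receptors Fgfr4 (-2.91 ± 0.12) and Fgfr3 (-1.94 ± 0.14) were lower. Spry1, like Spry4 a target and feedback inhibitor, was also lower (-0.44 ± 0.10, adjusted p = 0.0312). Of further targets, named after their values were seen, Il17rd (0.83 ± 0.11) and Etv5 (0.51 ± 0.12) were higher. Dusp6 (0.24 ± 0.09, adjusted p = 0.103) and Spry2 (0.25 ± 0.08, adjusted p = 0.0799) did not pass. Around Bmp2, 21 genes were tested, of which 5 were higher, 4 were lower and 12 did not pass (median 0.06). These counts lie near the shares over all tested probes, 22.7% higher and 18.0% lower. Bmper, a secreted BMP modulator (2.60 ± 0.09), the receptor Acvr2b (1.48 ± 0.10) and the transducer Smad5 (0.74 ± 0.09) were higher. The antagonist Fst (-1.86 ± 0.15), the target Id4 (-1.61 ± 0.14) and the receptor Bmpr1b (-1.53 ± 0.08) were lower. Of other BMP targets, named after their values were seen, Id1 was lower (-0.43 ± 0.11, adjusted p = 0.0443). Id2 (0.10 ± 0.13), Id3 (-0.20 ± 0.14), Smad6 (0.16 ± 0.08) and Smad7 (-0.04 ± 0.09) did not pass.

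Among 15 transcription factors and cofactors that work with Pax2, Pax8 or Lhx1, or beside them in the progenitors, 7 were higher, 3 were lower and 5 did not pass (median 0.41). After Six2, the highest were Hoxa11 (1.68 ± 0.09), a HOX factor of the renal mesenchyme, and Sall1 (1.67 ± 0.10), a zinc-finger factor needed for outgrowth of the bud. The lower ones were Gata3 (-5.13 ± 0.38), a factor of the bud, Ldb2 (-4.75 ± 0.18), a partner of LIM-homeodomain factors such as Lhx1, and Meis1 (-0.67 ± 0.11). Ldb1, the other partner of LIM-homeodomain factors in the list and named after its value was seen, was higher (0.55 ± 0.10, adjusted p = 0.0216), so the 2 partners of Lhx1 lay on opposite sides.

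**Figure D5:**
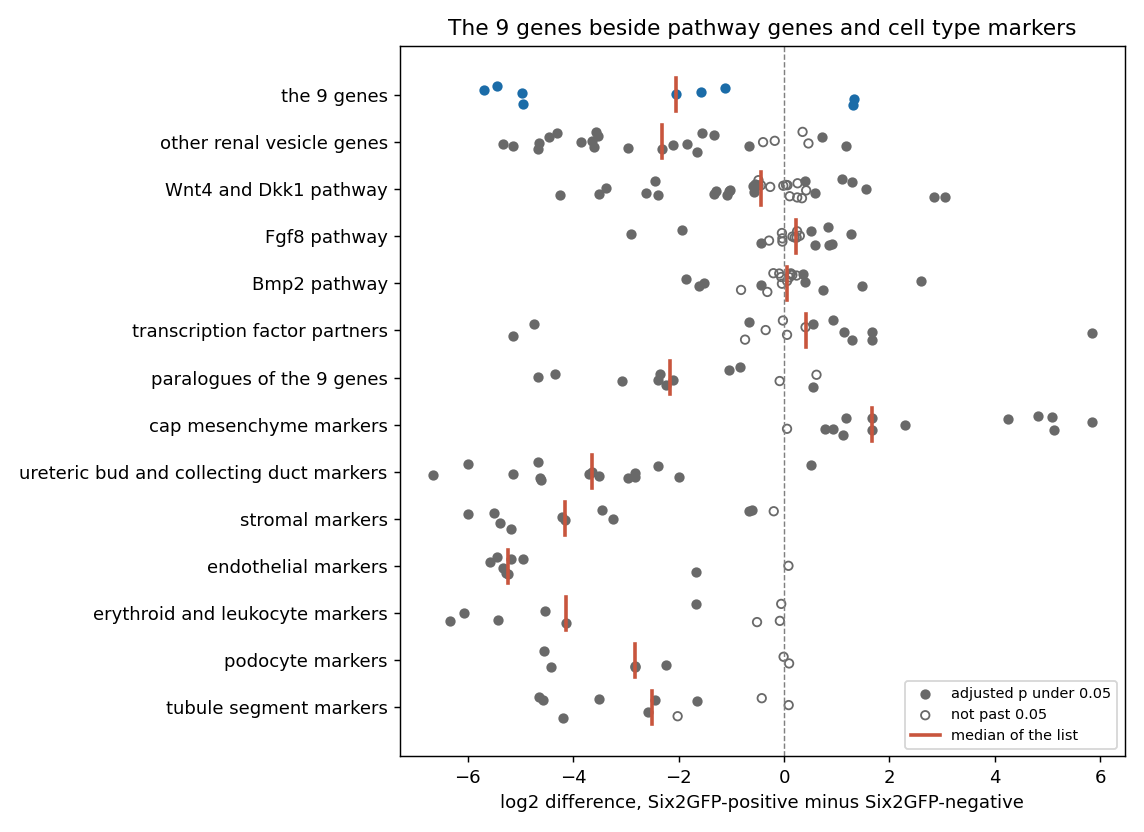
Difference in log2 signal, Six2GFP-positive minus Six2GFP-negative, of the genes of each fixed list (points, brightest probe per gene, open where the gene did not pass, blue for the 9 genes) and the median of the list (red line). The medians run from -5.23 for endothelial markers to 1.68 for cap mesenchyme markers, and that of the 9 genes is -2.05.

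Close relatives of the 9 genes were read as well, and 12 of 18 were bright enough to be tested. Of these, 9 were lower and 1 was higher. Wnt11, a signal of the bud tips, was lower by -4.67 ± 0.13, Wnt6 by -3.08 ± 0.53, Wnt7b by -2.39 ± 0.22 and Wnt5a by -2.10 ± 0.11. All 4 tested Wnt relatives were thus lower, as Wnt4 was. Among the Dickkopf genes, Dkk2 (-4.35 ± 0.15) and Dkk3 (-2.25 ± 0.09) were lower, as Dkk1 was, and Dkkl1 was higher (0.55 ± 0.11, adjusted p = 0.0260). Emx1 (-2.35 ± 0.20) and Bmp4 (-1.04 ± 0.12) were lower, as their relatives Emx2 and Bmp2 were. Fgf18 differed from Fgf8 in direction, being lower (-0.84 ± 0.13, adjusted p = 0.0139). Pax5 (0.62 ± 0.20, adjusted p = 0.0758) and Pou3f1 (-0.08 ± 0.09, adjusted p = 0.510) did not pass. Wnt2b, Fgf17, Lhx5, Pou3f2, Pou3f4 and Dkk4 were not well above background on both arrays of either group.

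The genes next to the 9 on the chromosome, by the order of RefSeq genes, were mixed. Npm3, a histone chaperone gene beside Fgf8, was higher with it (1.16 ± 0.08, adjusted p = 0.00219). Emx2os, the antisense transcript of Emx2, was lower with Emx2 (-1.63 ± 0.14, adjusted p = 0.00313). Psd4 beside Pax8 (-1.08 ± 0.27, adjusted p = 0.0425) and Prkg1 beside Dkk1 (-1.0 ± 0.15, adjusted p = 0.0133) were also lower. The non-coding gene 2900092D14Rik, read 3858 bases from the Pou3f3 probe on the same strand, was not well above background in the positive samples and was at least 5.48-fold lower there (adjusted p = 4.79e-04). These 5 are the neighbours that passed, and each lay on the same side as the listed gene. Over all tested probes 22.7% were called higher and 18.0% lower. Cdc42 beside Wnt4 (-0.18 ± 0.10, adjusted p = 0.197) and, beside Lhx1, Aatf (0.05 ± 0.08, adjusted p = 0.651) and Lhx1os (0.34 ± 0.15, adjusted p = 0.134) did not pass. The remaining neighbours were not bright enough to be tested or had no probe under their name.

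For each of the 9 genes, the probe with the nearest 4 centred values was sought, as root mean square distance in log2 units. The candidates were probes of other named genes that stood well above background on all 4 arrays. Probes at background in the positive samples were thus not among them. Pax8 lay nearest to Ralb (0.004), Fgf8 to Me2 (0.005), Bmp2 to Lpin3 (0.009) and Pax2 to Mapk8ip1 (0.019). Lhx1 (0.016) and Pou3f3 (0.073) both lay nearest to Adgrg6. Wnt4 lay nearest to Lactb2 (0.053), Dkk1 to Gc (0.060) and Emx2 to Art4 (0.131). The number of candidate probes within a distance of 0.1 was 274 for Pax8, 135 for Pax2, 113 for Bmp2 and 89 for Fgf8. It was 15 for Lhx1, 6 for Pou3f3, 5 for Wnt4, 1 for Dkk1 and 0 for Emx2. These numbers depend on which probes were candidates. With 4 arrays a close match describes those arrays alone.

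The 250 bases upstream of the start were read for the 7 of the 9 genes that the RefSeq promoter table (GRCm38.p6) lists; Fgf8 and Bmp2 are named only. Those of Dkk1, Wnt4 and Emx2 are printed: Dkk1 for its TCF/LEF matches, Wnt4 as the richest in G and C, and Emx2 as the gene with the largest difference after Dkk1. Capitals mark, on either strand, CTTTGA, the core of the TCF/LEF motif through which Wnt signals act, the TATA box letters TATAAA, the CCAAT box letters CCAAT and the GC box letters GGGCGG. No match overlaps one of another motif.
Dkk1, chr19:30549497-30549746, minus strand: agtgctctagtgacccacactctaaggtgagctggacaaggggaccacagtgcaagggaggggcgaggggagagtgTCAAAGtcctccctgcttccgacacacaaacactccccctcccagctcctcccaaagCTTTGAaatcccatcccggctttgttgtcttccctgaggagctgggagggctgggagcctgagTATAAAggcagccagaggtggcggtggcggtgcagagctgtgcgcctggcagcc
Wnt4, chr4:137277385-137277634, plus strand: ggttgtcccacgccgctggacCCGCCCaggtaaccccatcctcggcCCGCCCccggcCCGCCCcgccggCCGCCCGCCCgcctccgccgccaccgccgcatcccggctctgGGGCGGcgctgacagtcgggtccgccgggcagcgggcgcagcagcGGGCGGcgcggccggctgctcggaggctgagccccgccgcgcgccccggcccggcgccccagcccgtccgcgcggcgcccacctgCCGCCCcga
Emx2, chr19:59458440-59458689, plus strand: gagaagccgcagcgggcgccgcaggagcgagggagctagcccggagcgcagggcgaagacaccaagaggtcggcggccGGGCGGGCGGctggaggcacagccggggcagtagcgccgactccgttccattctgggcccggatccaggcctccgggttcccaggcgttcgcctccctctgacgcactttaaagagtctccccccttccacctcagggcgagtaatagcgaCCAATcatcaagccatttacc

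The Dkk1 window held CTTTGA at 2 places, 117 and 174 bases before the start, and was the sole one of 9 windows of the 7 genes (Pax2 has 3) to hold it, against 13.8% of all 32851 windows. It also held TATAAA 54 bases before the start, a motif found in 12.4% of all windows. The Wnt4 window had neither, but consisted of 85.2% G and C with 44 CpG pairs, against 60.8% and 6 for Dkk1, 67.2% and 24 for Emx2 and medians of 52.4% and 6 over all windows. GGGCGG occurred in windows of 5 of the 7 genes (32.7% of all windows) and CCAAT in those of Emx2, Lhx1, Pax8 and Pou3f3 (33.8% of all windows). These matches describe letters within these windows alone.

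The Six2GFP-negative samples held RNA of many cell types, which bears on the 7 genes that were lower in the positive cells. Of 15 markers of the ureteric bud and collecting duct, 14 were lower in the positive cells, among them Ret (-6.66 ± 0.15) and Krt23 (-5.99 ± 0.17), and Etv5 was higher (0.51 ± 0.12). Their summed level, in units of the 75th percentile of the array, was 18.8 and 20.0 in the positive samples and 44.0 and 53.4 in the negative samples. Etv5 made up most of the positive sums, and without it they were 3.45 and 2.63 against 33.3 and 41.1. Tubule segment markers were lower in 7 of 10 cases, among them Hnf4a (-4.58 ± 0.15), with sums of 2.68 and 1.91 against 21.4 and 24.1. The 3 tubule markers without a call, named after their values were seen, were Slc12a1, Umod and Slc12a3. Their differences were -2.02 ± 2.15 (adjusted p = 0.487), -0.42 ± 0.47 (adjusted p = 0.508) and 0.09 ± 0.75 (adjusted p = 0.933). Slc12a1 read -3.08 on positive array 1 and -9.14 on positive array 2. Podocyte markers were lower in 5 of 7, with sums of 0.791 and 0.749 against 5.98 and 5.25. Synpo (0.10 ± 0.09, adjusted p = 0.442) and Magi2 (-0.01 ± 0.17, adjusted p = 0.973), named after their values were seen, did not pass. Stromal markers were lower in 10 of 11 (Pdgfra, -5.39 ± 0.19), with sums of 16.7 and 14.1 against 104 and 94.4, or 9.65 and 7.68 against 93.0 and 84.2 without Meis1. The stromal gene without a call, named after its value was seen, was Foxd1 (-0.20 ± 0.15, adjusted p = 0.338). Endothelial markers were lower in 8 of 9 (Cdh5, -5.46 ± 0.11), with sums of 6.07 and 5.78 against 16.5 and 15.3. Most of the positive sums came from Kdr, the gene without a call, and without it they were 0.314 and 0.335 against 10.9 and 10.3; the genes left out of these sums were chosen after their values were seen. Erythroid and leukocyte markers were lower in 6 of 9 (Alas2, -6.34 ± 0.17), with sums of 24.9 and 32.4 against 505 and 473. The globin genes Hba-a1 and Hbb-b1 made up most of these sums. The leukocyte markers, named after their values were seen, were mixed. Ptprc was lower (-1.68 ± 0.17), while the 3 genes without a call were Csf1r (-0.51 ± 0.21, adjusted p = 0.121), C1qa (-0.08 ± 0.29, adjusted p = 0.844) and Cd68 (-0.05 ± 0.14, adjusted p = 0.788). Cap mesenchyme markers were higher in 12 of 13, with sums of 244 and 241 against 68.5 and 69.6, so the negative samples also held RNA of progenitor genes. Most lists of other cell types thus ran in the same direction as Wnt4, Lhx1, Pax8, Emx2, Pou3f3, Dkk1 and Bmp2, and the part of each cell type in those differences was not tested.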

How the data were processed

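The deposited scanner files hold linear intensity per spot on 1-colour Agilent arrays of design 026655, quantified by the authors with Feature Extraction 10.7.3.1 under protocol GE1_107_Sep09, per the file headers, with probe positions in mm9. RNA was labelled with Cy3, per the labels. The deposited series table holds the same intensity values: about 99.8% of probes or more matched the scanner files to 0.01 on the log2 scale, with array medians of 114, 110, 158 and 144, so scale, centring and direction are settled.

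Control spots were left out, and of the 43020 other spots per array, 108 to 174 outlier spots, which dropped 34 probes. Processed signals were scaled to the 75th percentile of each array, taken to log2 and averaged per probe. Groups were compared with limma 3.58.1 (R 4.3.3) over 30012 probes with Benjamini-Hochberg adjustment, a method tested on simulated data. Names of 26055 probes came through accessions in RefSeq. Genes outside the 9 were named by rule, except where the text says that their values were seen first. The rule took Six2 and Cited1, relatives, neighbours, the nearest pattern, and up to 3 called genes with the largest difference per list and direction. For 14 alternatives the closing section gives the effect. The 9 genes and all lists were chosen with earlier results of these data known. The number of arrays limits the precision.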

Additional observations from a re-analysis of the deposited data

How the results depend on the processing

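Over 14 alternatives in scaling, background correction, filter, test and arrays left out, no difference of the 14 probes changed sign. Each probe was tested in 12 to 14 of the alternatives. Of these values, 181 kept their side of the threshold, 4 lost the call and 4 gained it. Member probes called higher numbered 5, 4 to 5 without one array, 6 with quantile scaling, and 2 with 1 probe per gene, where fewer probes were tested; those called lower numbered 8, and 7 to 8 without one array. The dim Fgf8 probe A_55_P2101506 accounts for the 4 gains: with quantile scaling (1.32, adjusted p = 0.0489), with array-median scaling, with normexp and the 75th percentile (not with normexp and quantile scaling) and without positive array 2 (1.54, adjusted p = 0.0176); the 4 losses are those of Wnt4 and Pax2 A_55_P2075125 without one array. With normexp Emx2 differed by -4.32 and Dkk1 by -4.74. Scaled to the array median, the median of all probes rose from 0.17 to 0.41, and 13562 probes were higher and 4654 lower, against 6810 and 5400. Without a filter 3792 were higher and 4715 lower, and without one array 1838 to 2740 were higher and 3742 to 4384 lower, so that under each of these the lower calls outnumbered the higher ones. No label says that replicate numbers pair the samples; deviations of same-numbered arrays correlated at 0.22 over probes. With the replicate block, 5 member probes were higher and 8 lower, and 6236 and 5435 of all probes. Dim probes (Pou3f3, Fgf8 A_55_P2101506) are limited by background.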
